A study of Gossypium hirsutum with 24 samples.

Results

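Di19-1 and Di19-2 are upland cotton genes of the Di19 family of zinc finger proteins, whose name stands for drought-induced. Both were followed on Affymetrix cotton arrays in developing bolls and fibre-bearing ovules of Gossypium hirsutum. They were taken as every probe set whose single annotated gene is LOC107888326 (Di19-1) or LOC107887150 (Di19-2), which gave 1 probe set for each gene. They are 2 of the 520 genes, and 2 of the 697 probe sets, for which the annotation names exactly 1 gene, while 23230 of the 23973 probe sets tested have no gene named there. Neither probe set is shared with another annotated gene, but the one of Di19-1 carries the suffix _s_at, which marks a probe set that can bind related transcripts, while the one of Di19-2 carries the plain suffix _at. In the RefSeq assembly Gossypium_hirsutum_v2.1 Di19-1 lies on chromosome D13 and Di19-2 on chromosome A11.

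Di19 proteins carry zinc fingers of the Cys2/His2 type and are found in the nucleus. In Arabidopsis, Di19 proteins are phosphorylated by calcium-dependent protein kinases, and the founding member binds and activates promoters of pathogenesis-related genes. In cotton, Di19-1 and Di19-2 have been studied as genes that respond to salt and drought and that alter abscisic acid and salt responses when expressed in Arabidopsis. Upland cotton is an allotetraploid with an A and a D subgenome, and a short array probe often cannot tell the copies of a gene in its subgenomes apart.

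The plants were of the cultivar Bikaneri Nerma, grown in the field under a rain-out shelter, in 6 drought plots and 6 control plots. Drought plots were no longer watered from peak flowering and were sampled 18 to 19 days later, when soil moisture was 19.5%, which is 50% of that of the control plots, while control plots were watered normally. Each treatment gave 3 arrays, called biological replicates in the labels, at 0, 5, 10 and 20 days post anthesis (dpa): drought and control bolls at 0 and 5 dpa, and drought and control fibre-bearing ovules at 10 and 20 dpa. For 0 dpa one note also names leaf, and the labels do not say which plots or plants a replicate came from, so the p-values measure the spread between these arrays.

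The deposited values are log2 signals in which each probe set has a median of 0 over the 6 arrays of a stage. A value is therefore the distance from that stage median. It gives neither the level of a gene nor how control plants changed from one stage to the next, and for the same reason the presence of defining tissue markers could not be checked. Drought minus control differences at a stage are kept, as are their changes with stage. A bulk sample also cannot tell fewer cells of a type from less RNA per cell. Across a whole array, the drought minus control difference had a median between −0.07 and 0.01 at the 4 stages, and its median standard error was 0.10.

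The arrays differed in ways that moved with treatment. Control transcripts that Affymetrix adds to the RNA before labelling (poly-A spikes) read 0.22 higher in drought than in control arrays at 0 dpa, 0.24 lower at 5 dpa, 1.26 higher at 10 dpa and 1.10 higher at 20 dpa on the log2 scale. Those added before hybridisation moved by −0.0017, 0.040, 0.38 and −0.37 at the same stages. The 5′ minus 3′ signal of the cotton control transcripts, a gauge of RNA integrity and labelling, was higher in drought arrays by 0.66 at 0 dpa, 0.30 at 5 dpa, 0.36 at 10 dpa and 1.17 at 20 dpa. The drought and control ranges of this signal did not overlap at any stage. The part of these array differences in the results for the Di19 genes was examined only through the alternatives given with those results.

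Di19-1 was higher in drought than in control material at all 4 stages on the deposited scale, by 0.36 to 0.99 log2 units. It was higher at 0 and 5 dpa under every alternative scale as well, while at 10 dpa the sign turned with scaling on poly-A spikes and at 20 dpa with scaling on all spikes or on poly-A spikes. Di19-2 was higher in drought at 5 dpa under every scale, and at 10 dpa on the deposited scale, where each spike scaling turned the value below 0. At 0 and 20 dpa the difference of Di19-2 did not pass the test on the deposited scale. The family name therefore described Di19-1 at each stage of these bolls and ovules on the deposited scale, but Di19-2 only at 5 and 10 dpa.

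At 0 dpa, the day of flowering, Di19-1 read 0.41, 0.26 and 0.45 in the drought bolls of replicates 1 to 3, against −0.26, −0.32 and −0.36 in the control bolls. Every drought array stood above every control array, with a gap of 0.51 between the lowest drought and the highest control value. The means were 0.37 ± 0.10 in drought and −0.31 ± 0.05 in control (SD, n = 3 each), a difference of 0.68 ± 0.10 (SE) or 1.61-fold, with an adjusted p = 1.63e-05 in limma's moderated test over all probe sets. At this stage 44.2% of all probe sets passed the same test and 21.4% passed it as higher in drought, so that a call by itself sets Di19-1 little apart. A higher signed difference was found for 5.23% of probe sets.

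At 5 dpa, when fibres are elongating, the Di19-1 values were 0.38, 0.44 and 0.28 in drought bolls, against −0.28, −0.56 and −0.48 in control bolls. The groups were again separate, with a gap of 0.55. They averaged 0.36 ± 0.08 in drought and −0.44 ± 0.14 in control (SD, n = 3 each), which is a difference of 0.80 ± 0.10 (SE), 1.74-fold, adjusted p = 6.66e-07. This compares with 58.2% of probe sets called at 5 dpa, 24.8% of all being higher in drought, and 9.61% had a higher difference than Di19-1.

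At 10 dpa, in fibre-bearing ovules, Di19-1 had its widest separation on the deposited scale. The drought ovules read 0.37, 0.35 and 0.55, against −0.77, −0.35 and −0.56 in control ovules, and the gap between the groups was 0.71. Means of 0.43 ± 0.11 in drought and −0.56 ± 0.21 in control (SD, n = 3 each) gave a difference of 0.99 ± 0.10 (SE), 1.98-fold, adjusted p = 2.40e-08, where 60.3% of probe sets were called and 28.5% were called higher in drought. Scaling on all spikes left a difference of 0.10 that did not pass the test (adjusted p = 0.513 in limma), and scaling on poly-A spikes alone gave −0.27.

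At 20 dpa, when fibres enter secondary wall formation, the separation was the smallest. Di19-1 read 0.29, 0.13 and 0.04 in drought ovules, against −0.28, −0.28 and −0.04 in control ovules. The groups did not overlap, but the lowest drought value and the highest control value were only 0.08 apart. The means were 0.15 ± 0.13 in drought and −0.20 ± 0.14 in control (SD, n = 3 each), with a difference of 0.36 ± 0.10 (SE), 1.28-fold, adjusted p = 0.00456. At this stage 60.0% of probe sets were called, 26.0% were called higher in drought, and the difference turned to −0.11 with scaling on all spikes and to −0.74 with scaling on poly-A spikes. When the fit included the 5′–3′ covariate it was 0.50 ± 0.30 (SE) and no longer passed (adjusted p = 0.285 in limma). At this stage the 5′–3′ signal ran from 0.45 to 0.67 in drought arrays and from −0.76 to −0.44 in control arrays. That fit could therefore separate the signal from treatment only weakly.

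**Figure D1:**
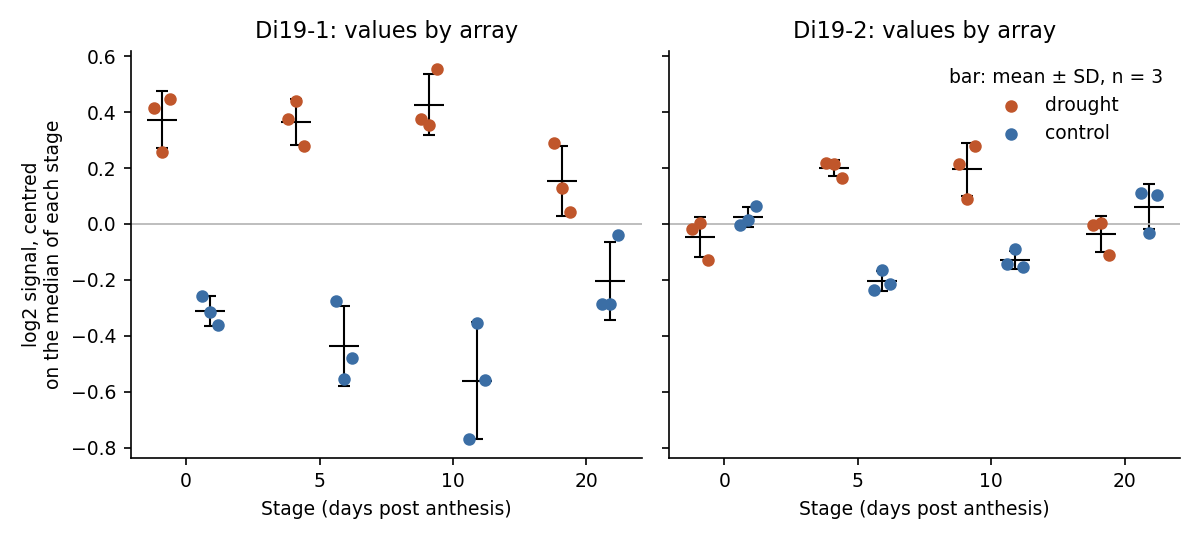
Deposited log2 signal of Di19-1 (left) and Di19-2 (right), centred on the median of each stage, for every array by stage in days post anthesis, with drought left of control; points are arrays and bars are the mean ± SD of 3. Di19-1 is separated at all 4 stages, most at 10 dpa, while Di19-2 is separated at 5 and 10 dpa and overlaps at 0 and 20 dpa; on scales set by spike controls the 10 and 20 dpa differences can change sign.

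Di19-2 moved less and at fewer stages. At 0 dpa it read −0.02, 0.00 and −0.13 in drought bolls, against 0.00, 0.02 and 0.07 in control bolls, and the groups overlapped. The means were −0.05 ± 0.07 in drought and 0.03 ± 0.04 in control (SD, n = 3 each). The difference was −0.07 ± 0.06 (SE), adjusted p = 0.312 in limma, with a 95% interval of −0.19 to 0.04, so a rise of the size seen for Di19-1 at this stage lies outside the interval on the deposited scale.

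In drought bolls at 5 dpa Di19-2 read 0.22, 0.21 and 0.17, against −0.24, −0.17 and −0.22 in control bolls. The 3 arrays of each group lay close together, and the groups were 0.33 apart. The means of 0.20 ± 0.03 in drought and −0.21 ± 0.04 in control (SD, n = 3 each) differed by 0.40 ± 0.06 (SE), 1.32-fold, adjusted p = 2.33e-06 in limma. The difference was 0.37 with scaling on hybridisation spikes, where it did not pass (adjusted p = 0.0793), and 17.7% of probe sets had a higher difference as deposited.

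At 10 dpa the ovules of drought plants gave Di19-2 values of 0.22, 0.09 and 0.28, against −0.14, −0.09 and −0.15 in ovules of control plants. These groups were separated by 0.18. With means of 0.19 ± 0.10 in drought and −0.13 ± 0.03 in control (SD, n = 3 each) the difference was 0.32 ± 0.06 (SE), 1.25-fold, adjusted p = 3.38e-05 in limma, but its sign turned with every spike scaling, to −0.56 on all spikes, −0.94 on poly-A spikes and −0.058 on hybridisation spikes.

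At 20 dpa Di19-2 read 0.00, 0.00 and −0.11 in drought ovules, against 0.11, −0.03 and 0.10 in control ovules. The groups overlapped, as at 0 dpa. The means were −0.04 ± 0.06 in drought and 0.06 ± 0.08 in control (SD, n = 3 each), and the difference of −0.10 ± 0.06 (SE) did not pass (adjusted p = 0.137 in limma, 95% interval −0.22 to 0.02). It passed as −0.14 when control replicate 2, the lowest of the control arrays, was left out (adjusted p = 0.0446), and as −0.57 and −1.20 with scaling on all spikes and on poly-A spikes. With scaling on hybridisation spikes it was 0.27, and with the 5′ minus 3′ covariate 0.028, neither of which passed.

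Over the 4 stages together the mean drought minus control difference was 0.71 ± 0.05 (SE) for Di19-1 (1.63-fold, adjusted p = 7.43e-11 in limma) and 0.14 ± 0.03 for Di19-2 (1.10-fold, adjusted p = 0.000162), in a contrast where 68.5% of probe sets were called. The mean of Di19-1 was above 0 under every scale, although with poly-A spikes it was 0.12 and did not pass, while that of Di19-2 turned to −0.20 with all spikes and to −0.44 with poly-A spikes. The mean of Di19-2 did not pass with hybridisation spikes (0.13, adjusted p = 0.215) or with the 5′–3′ covariate (0.21, adjusted p = 0.0685). The complete separation of drought and control arrays was common on these arrays, being found for 56.6% of probe sets at 0 dpa, 67.3% at 5 dpa, 62.8% at 10 dpa and 62.7% at 20 dpa. Being called higher in drought at all 4 stages was less common. It held for Di19-1 and for 3.41% of probe sets, 818 of 23973, on the deposited scale.

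Both genes were of moderate size among all probe sets. The middle 90% of drought minus control differences ran from −0.55 to 0.70 at 0 dpa, −1.01 to 1.35 at 5 dpa, −1.56 to 1.60 at 10 dpa and −0.98 to 1.27 at 20 dpa, and every value of both Di19 genes lay inside these bounds. The rank of Di19-1 was highest at 0 dpa, with 5.23% of probe sets above it, and lower at 10 dpa, with 9.25% above it, and at 20 dpa, with 20.0%. For Di19-2 the share of probe sets above it was 62.1% at 0 dpa, 17.7% at 5 dpa, 24.5% at 10 dpa and 53.5% at 20 dpa. A rank within a stage is not altered by a scaling that shifts whole arrays equally. The standard error of a difference was 0.10 for Di19-1, with 55.1% of probe sets below it, and 0.06 for Di19-2, with 13.2% below it, so that the smaller differences of Di19-2 were measured more closely.

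**Figure D2:**
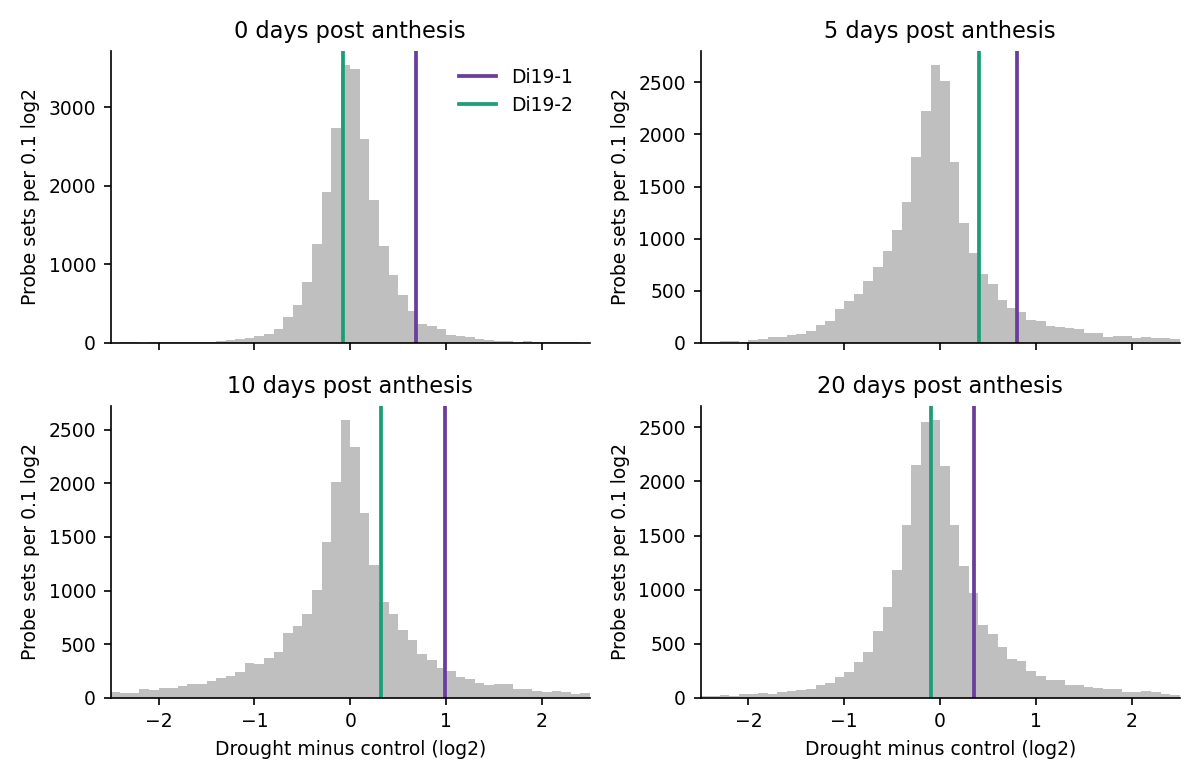
Number of probe sets per 0.1 log2 of drought minus control difference at each stage (grey), with the differences of Di19-1 and Di19-2 as vertical lines, on the deposited scale; probe sets beyond the axis limits are not drawn. Di19-1 lies in the upper shoulder at every stage, with 5.23% to 20.0% of probe sets above it, and Di19-2 lies near the centre at 0 and 20 dpa.

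How the drought difference changed with stage was tested as differences between stages in the same fit. For Di19-1 the order on the deposited scale was 10, 5, 0 and 20 dpa from largest to smallest, and no change between neighbours in that order passed the test on that scale. The 10 minus 5 dpa change was 0.19 ± 0.14 (adjusted p = 0.313 in limma, 95% interval −0.11 to 0.48), the 5 minus 0 dpa change 0.12 ± 0.14 (adjusted p = 0.519, interval −0.18 to 0.42), and the 20 minus 0 dpa change −0.33 ± 0.14 (adjusted p = 0.0698, interval −0.62 to −0.03). Stages further apart in that order did differ in part. The difference was smaller at 20 than at 10 dpa by −0.63 ± 0.14 (adjusted p = 0.000665) and smaller at 20 than at 5 dpa by −0.44 ± 0.14 (adjusted p = 0.0113), and the 10 minus 0 dpa change of 0.30 ± 0.14 did not pass (adjusted p = 0.0750). Neither call held under every alternative. The 20 minus 10 dpa change of Di19-1 did not pass with all spikes (−0.22, adjusted p = 0.391), poly-A spikes (−0.47, adjusted p = 0.132) or the 5′–3′ covariate (−0.53, adjusted p = 0.0816), and turned to 0.12 with hybridisation spikes (adjusted p = 0.660). The 20 minus 5 dpa change did not pass with the covariate (−0.34, adjusted p = 0.324) or with hybridisation spikes (−0.034, adjusted p = 0.919). The 10 minus 5 dpa change turned and passed with all spikes (−0.82) and with poly-A spikes (−1.32). The 10 minus 0 dpa change turned with all spikes (−0.45, adjusted p = 0.0513) and with hybridisation spikes (−0.079, adjusted p = 0.794). With poly-A spikes it turned and passed (−0.74, adjusted p = 0.00639). The 10 minus 0 dpa change passed without control replicate 2 of 10 dpa (0.41), and the 20 minus 0 dpa change passed without drought replicate 2 of 0 dpa (−0.38) or drought replicate 1 of 20 dpa (−0.39), and also with all spikes (−0.67, adjusted p = 0.0112) and poly-A spikes (−1.20, adjusted p = 7.32e-05).

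For Di19-2 the order was 5, 10, 0 and 20 dpa, and the stages fell into a high and a low pair on the deposited scale. The difference at 5 dpa exceeded that at 0 dpa by 0.48 ± 0.08 (adjusted p = 3.19e-05 in limma) and that at 10 dpa exceeded that at 0 dpa by 0.40 ± 0.08 (adjusted p = 0.000194). It was smaller at 20 than at 10 dpa by −0.42 ± 0.08 (adjusted p = 9.40e-05) and smaller at 20 than at 5 dpa by −0.50 ± 0.08 (adjusted p = 1.43e-05). Within each pair the change did not pass on the deposited scale: 10 minus 5 dpa was −0.08 ± 0.08 (adjusted p = 0.436, 95% interval −0.25 to 0.08) and 20 minus 0 dpa was −0.03 ± 0.08 (adjusted p = 0.821, interval −0.19 to 0.14). The 10 minus 5 dpa change did pass with all spikes and with poly-A spikes, where it reached −1.58. The 20 minus 0 dpa change passed as −0.90 with poly-A spikes and was 0.34 with hybridisation spikes. Of the changes between the pairs, the 10 minus 0 dpa change turned to −0.36 with all spikes and −0.64 with poly-A spikes, and the 20 minus 10 dpa change turned to 0.33 with hybridisation spikes, whereas the 5 minus 0 dpa change kept its sign on every scale. With hybridisation spikes the changes of 0.44 for 5 minus 0 dpa (adjusted p = 0.173), 0.013 for 10 minus 0 dpa (adjusted p = 0.965) and −0.093 for 20 minus 5 dpa (adjusted p = 0.763) did not pass. The 20 minus 10 dpa change did not pass with all spikes (−0.0070, adjusted p = 0.976) or poly-A spikes (−0.26, adjusted p = 0.400). Changes between stages were called for many probe sets: 53.3% for 5 minus 0 dpa, 46.6% for 10 minus 5, 59.9% for 20 minus 10, 58.4% for 10 minus 0, 57.9% for 20 minus 5 and 44.8% for 20 minus 0.

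The difference of the 2 genes within each array does not depend on how arrays are scaled, since a shift of a whole array cancels. Di19-1 minus Di19-2 ranged from 0.25 to 0.58 in drought bolls and from −0.43 to −0.25 in control bolls at 0 dpa. At 5 dpa it was 0.11 to 0.23 in drought and −0.39 to −0.04 in control, at 10 dpa 0.16 to 0.28 in drought and −0.63 to −0.26 in control, and at 20 dpa 0.13 to 0.29 in drought and −0.40 to −0.15 in control. In each stage all 3 drought arrays were above 0 and all 3 control arrays below it, where 0 marks no level because each probe set is centred. Among single probe sets, complete separation of the groups was found for 56.6% at 0 dpa, 67.3% at 5 dpa, 62.8% at 10 dpa and 62.7% at 20 dpa. How often the difference of 2 other probe sets separates was not tested.

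The drought difference of Di19-1 was thus larger than that of Di19-2 by 0.76 at 0 dpa, 0.40 at 5 dpa, 0.66 at 10 dpa and 0.46 at 20 dpa. Within a stage the exact two-sided permutation p was 0.1 each time, also after adjustment over the 4 stages, and 0.1 is the smallest that 20 assignments of 6 arrays can give. Over the 4 stages the excess averaged 0.57, with an exact two-sided permutation p of 1.25e-05 when arrays were reassigned within stages, the smallest that 160000 assignments can give. The limma intervals (95%) of the excess were 0.55 to 0.97 at 0 dpa, 0.19 to 0.61 at 5 dpa, 0.45 to 0.87 at 10 dpa, 0.25 to 0.66 at 20 dpa and 0.46 to 0.67 for the mean. Whether the 2 probe sets answer equally to an equal change in transcript was not tested, nor how often 2 other probe sets differ as much.

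**Figure D3:**
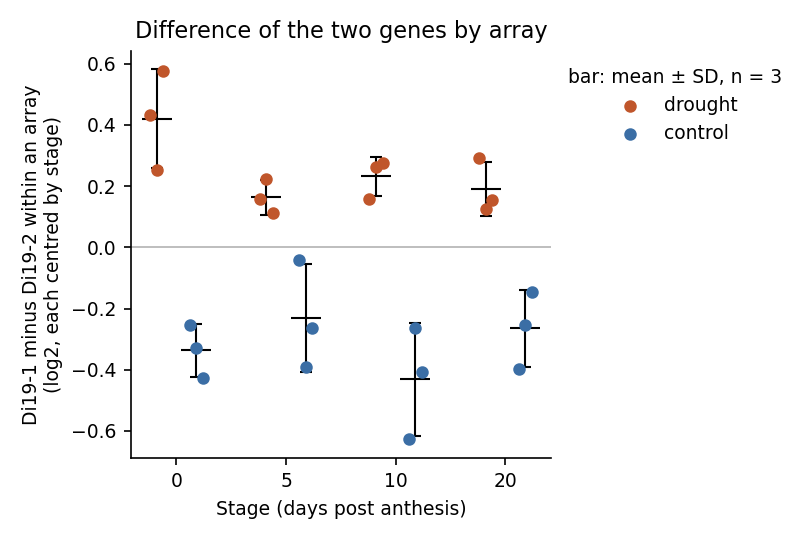
Di19-1 minus Di19-2 within each array, in log2 units of the stage-centred values, by stage in days post anthesis, with drought left of control; points are arrays and bars are the mean ± SD of 3. All 12 drought arrays are above 0 and all 12 control arrays below it, and a shift of a whole array does not move these points. How often the difference of other pairs of probe sets separates in this way was not tested.

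The direction of the separate genes at the later stages depended on the scale of the arrays. Compared with the deposited values, scaling on all spikes lowered every drought minus control difference by 0.12 at 0 dpa, raised it by 0.12 at 5 dpa and lowered it by 0.88 at 10 dpa and 0.47 at 20 dpa. The median over all probe sets then stood at −0.12 at 0 dpa, 0.07 at 5 dpa, −0.91 at 10 dpa and −0.53 at 20 dpa. Di19-1 was above that median at all 4 stages, with differences of 0.56, 0.92, 0.10 and −0.11 at 0, 5, 10 and 20 dpa. Di19-2 had −0.20, 0.53, −0.56 and −0.57 at those stages, which is above the median at 5 and 10 dpa and below it at 0 and 20 dpa. The share of called probe sets that were higher in drought was 48.3% at 0 dpa, 42.6% at 5 dpa, 47.3% at 10 dpa and 43.3% at 20 dpa as deposited, but 32.0%, 56.0%, 8.23% and 12.5% with all spikes. It was 22.1%, 69.0%, 5.21% and 4.51% with poly-A spikes, and 58.0%, 40.5%, 18.9% and 84.0% with hybridisation spikes.

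The kinds of spike moved apart at 10 and 20 dpa, so each was also used alone. With hybridisation spikes Di19-1 was called higher in drought at all 4 stages, with differences of 0.69, 0.76, 0.61 and 0.73 at 0, 5, 10 and 20 dpa. With poly-A spikes it was 0.46, 1.04, −0.27 and −0.74 at the same stages, called at 0, 5 and 20 dpa. Which scale is nearest to the amounts of transcript was not tested. With the 5′ minus 3′ covariate Di19-1 was 0.77, 0.84, 1.03 and 0.50 at the 4 stages and was called at all but 20 dpa.

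**Figure D4:**
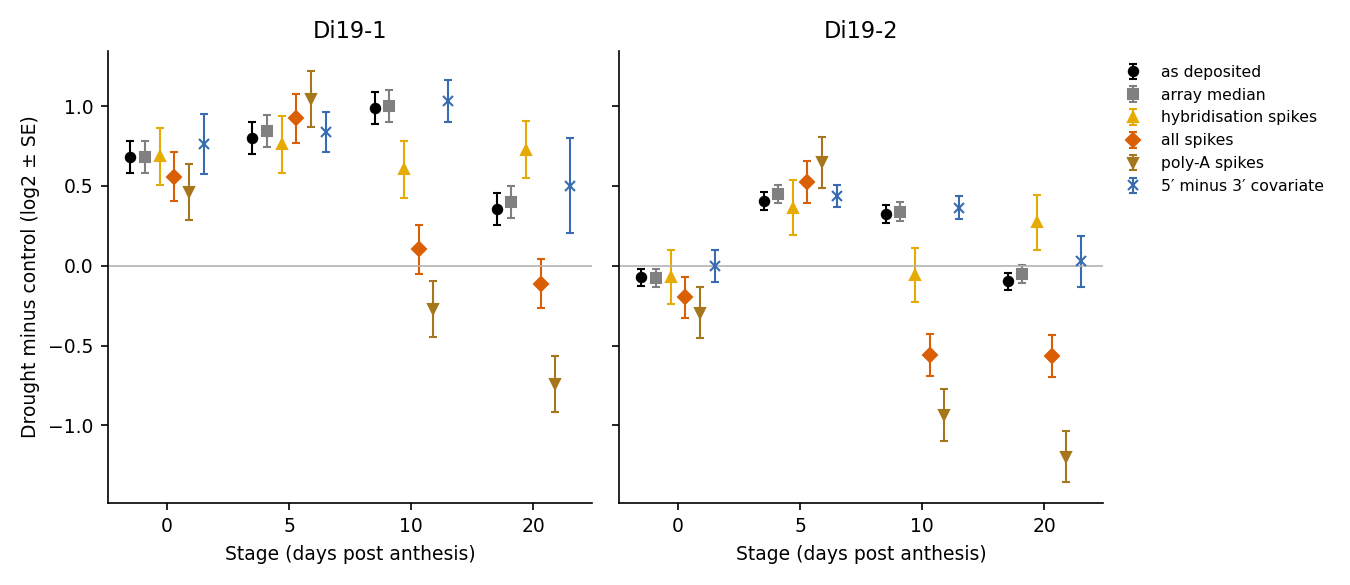
Drought minus control difference of Di19-1 (left) and Di19-2 (right) in log2 units ± SE by stage in days post anthesis, as deposited, with arrays centred on their median, with arrays scaled on hybridisation, all or poly-A spikes, and in a fit that includes the 5′–3′ signal. Di19-1 is above 0 on every scale at 0 and 5 dpa but is −0.27 at 10 dpa and −0.74 at 20 dpa with poly-A spikes; Di19-2 is above 0 on every scale at 5 dpa only.

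Across the 24 arrays the 2 genes had a Pearson correlation of 0.64 in stage-centred values, given as a description, since the arrays share the drought and control grouping. Of the other 23972 probe sets, 12.2% had a higher correlation with Di19-1 and 12.4% a higher one with Di19-2 than the 2 genes had with each other. Correlations above 0.9 were found with 0.296% of probe sets for Di19-1 and 0.901% for Di19-2. The genes described next are the 5 highest and 3 lowest among 245 other genes with an informative name. Their differences are on the deposited scale, from which scaling on all spikes takes the amounts given above, 0.88 at 10 dpa and 0.47 at 20 dpa. A later positive difference smaller than that turns negative with it, while a negative one becomes more negative.

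The named gene most like Di19-1 was Lea14-A (r = 0.92), a late embryogenesis abundant protein gene of the kind that accumulates in drying seeds and water-stressed tissue, with drought minus control differences of 0.89, 1.90, 3.29 and 1.17 at 0, 5, 10 and 20 dpa, all called. MPK14, a mitogen-activated protein kinase gene (r = 0.91), had 0.29, 0.46 and 0.65 at the first 3 stages, all called, and 0.05 at 20 dpa, which was not. VP, a vacuolar pyrophosphatase gene whose product pumps protons into the vacuole (r = 0.87), was called at 5 and 10 dpa with 0.41 and 0.42, against 0.11 and 0.14 at 0 and 20 dpa that were not. The estimates of these 3 genes, like those of Di19-1, were higher at 5 and 10 dpa than at 0 and 20 dpa on the deposited scale, a pattern used to choose them.

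Next came 2 genes for transcription factors. CBF20, also named DREB1C, of the family that binds dehydration-responsive elements (r = 0.87), had 0.08 at 0 dpa, not called, and 1.07, 0.91 and 0.50 at 5, 10 and 20 dpa, all called. RAV1, whose family joins an AP2 and a B3 domain (r = 0.86), had 1.02, 4.25 and 4.67 at 0, 5 and 10 dpa, all called, and 0.45 at 20 dpa, which was not. With the 5′–3′ covariate this RAV1 probe set had −0.20 at 0 dpa, not called, and −1.69 at 20 dpa, called lower (adjusted p = 0.0351 in limma). CBF20 at 20 dpa was then 0.29 and not called. At the other end stood POX9, a class III peroxidase gene (r = −0.93, a probe set of antisense design), with −0.70, −1.04, −1.44 and −0.55 at the 4 stages. CAP, for an adenylyl cyclase-associated protein that binds actin (r = −0.93), had −0.33, −0.82, −0.84 and −0.43, and the actin gene ACT4 (r = −0.91) had −0.27, −0.43, −0.81 and −0.39. All of these negative differences were called.

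The 5 named genes most like Di19-2 had their highest differences at 5 and 10 dpa, and RAV1 was among them as well, through another probe set than for Di19-1. CBF17, of the same family as CBF20 (r = 0.90), had −0.62, 2.60, 2.84 and −0.74 at 0, 5, 10 and 20 dpa, all called. ACS, for an aminocyclopropane carboxylate synthase of ethylene formation (r = 0.90, a probe set of antisense design), had −0.95, 4.99 and 4.73 at the first 3 stages, all called, and 0.27 at 20 dpa, not called. A second RAV1 probe set, also of antisense design (r = 0.90), had 0.09 at 0 dpa, not called, then 2.23, 2.81 and −0.48.

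HB4 (r = 0.87) had 0.01 at 0 dpa, not called, and 1.42, 1.95 and −1.02 at 5, 10 and 20 dpa, all called. The peroxidase gene pod1 (r = 0.87) was called at 5 and 10 dpa with 1.15 and 1.20, while 0.01 at 0 dpa and −0.12 at 20 dpa were not. Lowest for Di19-2 were 3 other genes. The alpha-tubulin gene TubA2 (r = −0.94) had 0.30, −0.69, −0.58 and 0.31 and the beta-tubulin gene BTub3 (r = −0.91) had 0.24, −1.05, −1.23 and 0.38, all called. XTH1, for a xyloglucan endotransglucosylase that remodels the wall (r = −0.89), was called at 5 and 10 dpa with −0.95 and −0.53 but not at 0 and 20 dpa, with 0.09 and −0.11.

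**Figure D5:**
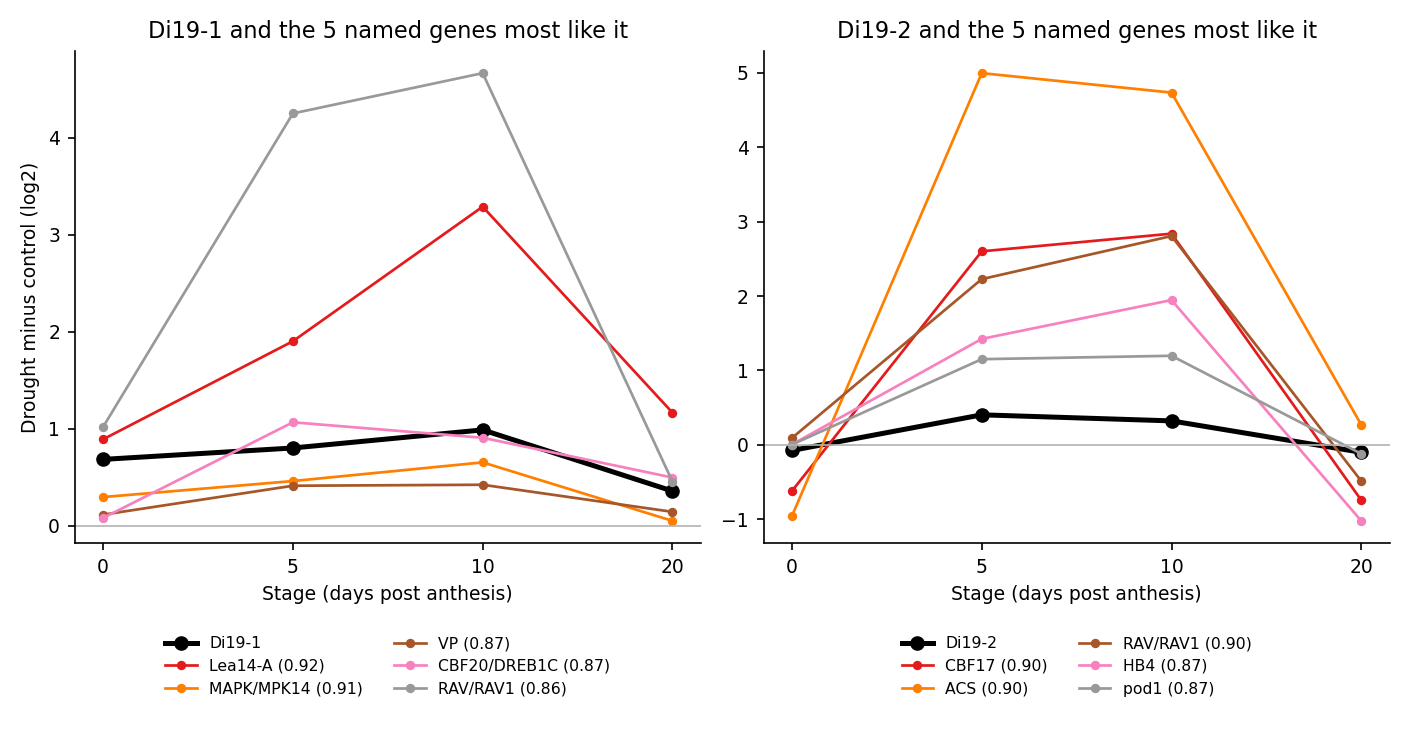
Drought minus control difference (log2, deposited scale) by stage in days post anthesis for Di19-1 (left, black) and Di19-2 (right, black) with the 5 named genes of highest Pearson correlation over 24 arrays, r in the legend. Genes most like Di19-1 stand at or above 0 at every stage, with Lea14-A and RAV1 the widest. With the 5′–3′ covariate the RAV1 probe set on the left is −0.20 at 0 dpa and −1.69 at 20 dpa. Genes most like Di19-2 are high at 5 and 10 dpa and near or below 0 at 0 and 20 dpa. The values at 10 and 20 dpa are lower by 0.88 and 0.47 with scaling on all spikes.

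Calcium sensing was represented by 5 genes. The calcineurin B-like proteins CBL1, CBL2 and CBL3 sense calcium and act through partner kinases, and annexins bind membranes in the presence of calcium. Of 5 such genes 1 rose and none fell at 0 dpa, 1 rose and 3 fell at 5 dpa, 1 rose and 2 fell at 10 dpa, and 2 rose and 2 fell at 20 dpa on the deposited scale, with medians of 0.06, −0.16, 0.07 and 0.04. For comparison, 44.2%, 58.2%, 60.3% and 60.0% of all probe sets were called at these stages, and 21.4%, 24.8%, 28.5% and 26.0% were called higher in drought. With scaling on all spikes 0 of the 5 rose and 5 fell at 10 dpa. On that scale 22017 of all 23973 probe sets were called at 10 dpa and only 8.23% of these were higher in drought, so a fall was common. With the 5′–3′ covariate 0 of the 5 rose and 1 fell at 20 dpa, where 4359 of all probe sets were called. CBL3 passed at 0 and 5 dpa with 0.55 and 0.81 and had 0.07 and 0.04 at 10 and 20 dpa, not called, so among the 5 it was the gene higher in drought at both of the stages where Di19-1 held on every scale. CBL1 had 0.18 at 0 dpa, not called, then −0.49, −1.06 and 0.83, the last being 0.51 and not called with the covariate. CBL2 had −0.03 and 0.08 at 0 and 5 dpa, not called, then 0.30 and −0.75. No calcium-dependent protein kinase, the class that phosphorylates Di19 in Arabidopsis, was among the 5.

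Of 17 genes for stress-related transcription factors (DREB, ERF, NAC, WRKY and their like), 4 rose and 5 fell at 0 dpa, 14 rose at 5 dpa, 11 rose at 10 dpa, and 9 rose and 5 fell at 20 dpa, with medians of 0.0049, 1.25, 0.99 and 0.42. With scaling on all spikes 8 rose and 7 fell at 10 dpa and 6 rose and 7 fell at 20 dpa, and with the 5′–3′ covariate 4 rose and 3 fell at 20 dpa. The shares called over all probe sets, as deposited and with all spikes at 10 dpa, are those given for the calcium genes. At 20 dpa 19423 probe sets were called with all spikes, 12.5% of them higher in drought. With the covariate 4359 were called at 20 dpa, 43.6% of them higher. The other zinc finger gene found by name, ZFP1, had differences of −2.34, 4.44, 6.97 and 0.94 at 0, 5, 10 and 20 dpa, all called. Its product is described in cotton as a CCCH zinc finger, another class than the Di19 type. Di19-1 and ZFP1 thus had opposite signs at 0 dpa, on the deposited scale and with scaling on all spikes.

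Late embryogenesis abundant genes were 2 besides a gene matched by name only. Lea5-D had 0.37, 2.57, 4.64 and 0.13 at the 4 stages, the last not called, and Lea14-A is given above, so both passed at 0, 5 and 10 dpa with differences above 0, although Lea5-D at 0 dpa did not pass with scaling on all spikes (0.24, adjusted p = 0.148). Over all probe sets 44.2%, 58.2%, 60.3% and 60.0% were called at 0, 5, 10 and 20 dpa as deposited. Those called higher in drought were 21.4%, 24.8%, 28.5% and 26.0%, so a call by itself was common. Rab7, a small GTPase gene that the name rule also caught, had −0.39, −0.14, −0.40 and −0.54, of which the 5 dpa value was not called. With the 5′–3′ covariate the Rab7 values at 0 and 20 dpa were −0.21 and −0.23 and were not called. Among genes matched to defence by name, Chia7, named as a chitinase, had −0.10, −0.64, −0.58 and −0.03, called at 5 and 10 dpa. GLU, the other, read by a probe set of antisense design, had −0.64, −1.25, −1.86 and 0.80, all called. Whether either gene is a target of Di19 proteins was not tested. No gene of abscisic acid metabolism or signalling was found by the names used.

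Markers of other cells moved with treatment too, and their part in the values of the Di19 genes was not tested. Of 22 genes taken as markers of fibre cells, 3 rose and 3 fell at 0 dpa, 2 rose and 14 fell at 5 dpa, 2 rose and 16 fell at 10 dpa, and 6 rose and 10 fell at 20 dpa, with medians of 0.0015, −0.93, −0.95 and −0.15. Of all probe sets, 44.2%, 58.2%, 60.3% and 60.0% were called at these stages as deposited, and 21.4%, 24.8%, 28.5% and 26.0% were called higher in drought. With scaling on all spikes 0 rose and 22 fell at 10 dpa and 3 rose and 16 fell at 20 dpa, and with the 5′–3′ covariate 2 rose and 7 fell at 20 dpa. With all spikes 22017 of 23973 probe sets were called at 10 dpa and 19423 at 20 dpa. Only 8.23% and 12.5% of these were higher in drought, so a fall was common on that scale. The pollen and anther list held G9, a pollen polygalacturonase gene, which was 7.95 higher in drought bolls at 0 dpa and had −0.11 and 0.0059 at 5 and 10 dpa, not called, and −0.26 at 20 dpa. With the 5′–3′ covariate the G9 value at 20 dpa turned to 0.29 and was not called. The green tissue list held RCA1, for the activase of Rubisco, with 0.37, −3.46, −0.30 and −0.85 at the 4 stages, of which 0.37 lost its call with scaling on all spikes and −0.30 was not called. With the covariate the RCA1 values at 0 and 20 dpa were 0.63 and −0.38, and both lost their call. Markers of seed storage and of xylem were represented by 0 genes.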

How the data were processed

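RNA of drought and control bolls and ovules was labelled as biotinylated cRNA and hybridised to 24 Affymetrix cotton arrays, 3 per group, per the labels' protocols. Log2 values of 24132 probe sets, deposited by the authors, were the input. They were made by RMA, per the submitters' processing notes (version not given in the sources used here). In the deposited log2 values each probe set has a median of 0 in each stage, to within 5e-07, a step stated nowhere in the sources used here. No genome build is named, so chromosomes are those of the RefSeq table.

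limma 3.58.1 in R 4.3.3 fitted 8 group means (16 residual degrees of freedom) to the 23973 probe sets left after removing 159 Affymetrix controls. Two-sided p-values were adjusted in each contrast over all of these by the Benjamini-Hochberg method, with calls at an adjusted p under 0.05. The excess of Di19-1 over Di19-2 was tested by exact permutation of arrays; its limma intervals come from the per-array difference fitted as 1 more feature. Alternatives were scaling on the 63 spike probe sets, array medians, the 5′ minus 3′ covariate (6 probe sets each), a replicate block, robust eBayes, array weights, each stage alone and leaving out each array; scaling on the 36 poly-A or 27 hybridisation probe sets alone, and the differences of non-consecutive stages, were added after seeing the data. Same-numbered arrays did not deviate together (1 of 12 correlations over 0.1). In data simulated for 10 dpa, the fit recovered 22% of changes of 0.25, 64% of 0.5, 98% of 1 and 100% of 2 log2 units. Only 200 of the 23973 simulated probe sets were changed, whereas 14445 were called in the data at 10 dpa. The adjustment was therefore stricter in the simulation, and these shares do not give the sensitivity of the tests reported here. Number of arrays limits the precision.

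The genes and lists were chosen with earlier results of these data known. Of the 520 genes 246 have a name in RefSeq and could be matched to lists; in the lists 1 probe set stood for a gene, by sense design, then suffix, then ID, and in the ranking by correlation the one with the highest (or lowest) correlation. Genes named besides the Di19 genes are the 5 highest and 3 lowest by correlation and the members of short lists. Sequences of the genes were not used here.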

Additional observations from a re-analysis of the deposited data

Results flagged for a closer look

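The drought difference changed between stages, by a test of the change itself, in 6 of 12 cases on the deposited scale, where 44.8% to 59.9% of all probe sets were called in these contrasts. For Di19-1 it was smaller at 20 dpa than at 10 dpa (−0.63) and than at 5 dpa (−0.44). For Di19-2 it was larger at 5 dpa (0.48) and at 10 dpa (0.40) than at 0 dpa, and smaller at 20 dpa than at 10 dpa (−0.42) and than at 5 dpa (−0.50). With scaling on hybridisation spikes none of the 6 changes passed (adjusted p between 0.173 and 0.965 in limma). No separate search for single outlying arrays was made within groups of 3. Their weight was examined only by leaving out each array and by array weights.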

How the results depend on the processing

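Of 16 planned results for Di19-1 and Di19-2, all kept direction and side of the threshold with array medians, array weights, robust eBayes and the replicate block, as did the 8 tested in each stage alone. The labels do not say whether equal replicate numbers pair the arrays. Fitted with the block, Di19-1 differed by 0.68, 0.80, 0.99 and 0.36 at 0, 5, 10 and 20 dpa, and the called probe sets numbered 10058, 13707, 14221 and 14060. At 10 dpa 3 of 6 arrays, and 0 at the other stages, correlated best with their own number. Leaving out 1 array changed 1 of 168 refits, Di19-2 at 20 dpa, whose values ran from −0.14 to −0.061; the added 20 minus 0 dpa change of Di19-2 ran from −0.072 to 0.012 and was 0.021 with array medians. The excess of Di19-1 over Di19-2 ran from 0.68 to 0.84 at 0 dpa, 0.32 to 0.49 at 5 dpa, 0.57 to 0.75 at 10 dpa, 0.39 to 0.52 at 20 dpa and 0.54 to 0.59 on average. With all spikes, Di19-1 gave 0.10 at 10 dpa, −0.11 at 20 dpa, and changes of −0.82 (10 minus 5 dpa), −0.22 (20 minus 10) and −0.45 (10 minus 0); Di19-2 gave −0.56 at 10 dpa, −0.57 at 20 dpa, a mean of −0.20, and changes of −1.09, −0.0070 and −0.36. With poly-A spikes, Di19-1 gave −0.27, −0.74, a mean of 0.12 and changes of −1.32, −0.47 and −0.74, and Di19-2 gave −0.94, −1.20, a mean of −0.44 and changes of −1.58, −0.26 and −0.64, in the same order. With hybridisation spikes, Di19-1 changed by −0.16 (10 minus 5 dpa), 0.12 (20 minus 10), −0.079 (10 minus 0) and 0.042 (20 minus 0); Di19-2 gave 0.37 at 5 dpa, −0.058 at 10 dpa, 0.27 at 20 dpa, a mean of 0.13, and changes of 0.44 (5 minus 0), 0.33 (20 minus 10) and 0.34 (20 minus 0). With the 5′ minus 3′ covariate, Di19-1 gave 0.50 at 20 dpa and −0.53 for 20 minus 10 dpa, and Di19-2 gave 0.028 at 20 dpa, a mean of 0.21 and 0.029 for 20 minus 0 dpa. Called probe sets numbered 3686 (covariate), 4246 (hybridisation) and 6578 (poly-A) at 0 dpa, against 10606 as deposited; 22017 (all spikes) and 22746 (poly-A) at 10 dpa, against 14445; and 4359 (covariate) and 22579 (poly-A) at 20 dpa, against 14380. The cause of these changes was not tested. Signal over background was not available, so that a limit from dim signal could not be given.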
